A study of Mus musculus with 9 samples.

Results

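The genes described here are 9 mouse genes of a pair of families: the LY6 genes Ly6a, Ly6c1, Ly6d and Ly6e, and the Schlafen genes Slfn1, Slfn2, Slfn3, Slfn4 and Slfn5. They were found by the gene name of each probe, or an older or newer symbol of the same gene, and are 9 of the 27656 genes and 11 of the 41174 probes on the array. They had been chosen with the values of these arrays known, so their own levels and differences are given as a description, with no test.

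Liver RNA was measured on 9 single-colour Agilent arrays, 3 per group. All groups were male C57BL/6 mice of 3 months, and the RNA came from liver lobe A. One group was treated with AAV-hGRB (written AAV-hGRβ here), an adeno-associated virus for the human glucocorticoid receptor in its β isoform, which differs from the hormone-binding α isoform at its carboxyl end. Another was treated with AAV-GFP, the same kind of vector for green fluorescent protein, and the last was untreated and labelled WT. The labels give no promoter, dose or time after the virus, and they do not say that replicates are separate animals. P-values are therefore about the variation among these samples, part or all of which may be technical. The study set out to characterise what the β isoform does in mouse liver.

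LY6 proteins are small proteins, most of them held in the cell membrane by a glycolipid anchor, with a fold of disulfide-linked fingers. Many are used as surface markers of leukocytes and of their progenitors, and several, Ly6a, Ly6c1 and Ly6e among them, are known to be induced by interferon. Schlafen proteins are intracellular. The short forms (Slfn1 and Slfn2) and the intermediate forms (Slfn3 and Slfn4) are found mainly in lymphocytes and myeloid cells, while the long forms, Slfn5 among them, also carry a helicase-like domain. Interferon is known to raise Schlafen genes through STAT and IRF factors bound to the interferon-stimulated response element.

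The promoter windows below are shown because both families are known interferon targets. They are RefSeq windows of 300 bases around the annotated gene start, on build GRCm38.p6, written 5′ to 3′ on the strand of the gene. Windows were found for 6 of the 9 members (Ly6c1 and all 5 Schlafen genes). Ly6a, Ly6d and Ly6e are named only. Capitals mark a match to the response element, searched on both strands as GAAA, any 2 bases and GAAA. The first window belongs to the Schlafen member with the largest difference, the second to the member with a match, the third to the neighbouring Slfn9, and the last to Ly6c1.
Slfn4, chr11:83174936-83175235, plus strand: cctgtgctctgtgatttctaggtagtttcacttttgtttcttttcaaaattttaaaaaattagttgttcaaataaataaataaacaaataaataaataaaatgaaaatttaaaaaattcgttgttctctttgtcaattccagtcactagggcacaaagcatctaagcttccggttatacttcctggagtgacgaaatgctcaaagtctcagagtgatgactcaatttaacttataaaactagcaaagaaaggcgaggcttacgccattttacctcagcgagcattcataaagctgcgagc
Slfn5, chr11:82951852-82952151, plus strand: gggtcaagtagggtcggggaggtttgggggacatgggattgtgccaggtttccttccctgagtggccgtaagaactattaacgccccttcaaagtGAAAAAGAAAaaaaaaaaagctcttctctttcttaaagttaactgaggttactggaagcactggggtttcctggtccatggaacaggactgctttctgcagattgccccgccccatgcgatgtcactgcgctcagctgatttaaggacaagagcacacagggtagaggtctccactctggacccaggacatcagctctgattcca
Slfn9, chr11:82991781-82992080, minus strand: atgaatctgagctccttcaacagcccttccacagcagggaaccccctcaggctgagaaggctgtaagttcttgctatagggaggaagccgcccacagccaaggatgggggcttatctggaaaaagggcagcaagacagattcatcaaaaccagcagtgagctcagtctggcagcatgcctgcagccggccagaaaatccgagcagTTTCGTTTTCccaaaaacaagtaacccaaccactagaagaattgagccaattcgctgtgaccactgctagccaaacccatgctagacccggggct
Ly6c1, chr15:75048788-75049087, minus strand: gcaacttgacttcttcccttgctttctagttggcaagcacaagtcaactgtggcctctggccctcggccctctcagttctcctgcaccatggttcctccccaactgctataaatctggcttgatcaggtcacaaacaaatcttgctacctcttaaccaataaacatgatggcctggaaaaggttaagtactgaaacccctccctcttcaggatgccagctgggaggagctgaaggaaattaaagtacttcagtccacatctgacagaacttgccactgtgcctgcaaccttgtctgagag

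Of the 6 members with a window, 1 held the response element, Slfn5, as GAAAAAGAAA starting at position -155 from the gene start. In comparison, 3.44% of the 32851 windows of all genes held it. This share and those below are per window, while a gene with several windows counts if any of them matches. Slfn9, which encodes a long Schlafen protein and is no member, held the response element on the other strand as TTTCGTTTTC at position -45. Slfn8 held the same letters at position -48 of its first window and -136 of its second, and Cd59a held GAAAGGGAAA at position -187, which makes 3 of the 27 other family genes with a window. The STAT element (TTC, any 3 bases, GAA) was in 0 of the 6 members and in 8.30% of all windows. The glucocorticoid response element (GNACA, any 3 bases, TGTNC) was in 0 of the 6 members and in 0.475% of all windows. A match is a run of letters in this window, and the lack of a match says nothing of the factor.

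A level here is the log2 of a probe's signal over its array's 75th percentile, where 0 means equal to that percentile. The level of a probe is set only against the same probe on other arrays. In the lists of values below, the AAV-hGRβ and AAV-GFP arrays are replicates 1, 2 and 3 and the untreated arrays are replicates 2, 3 and 4. The share of gene spots well above background was highest on AAV-hGRβ replicate 1, at 82.0%, and lowest on untreated replicate 3, at 54.0%. Over 16792 genes, r was 0.973 to 0.988 within groups and 0.950 to 0.989 between them. These genes passed a filter that asked for a probe well above background throughout 1 or more of the groups. Alb, Ttr and the other 7 hepatocyte markers tested were well above background on all 9 arrays.

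Of the 9 members, 6 passed that filter (Ly6a, Ly6c1, Ly6d, Ly6e, Slfn2 and Slfn4). Slfn4 did so only through the AAV-hGRβ group, where it is high, while the other 5 passed in all 3 groups. Slfn1, Slfn3 and Slfn5 did not pass in any group, and their values are given further on. In the plot of levels by array, filled points mark spots well above background.

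**Figure D1:**
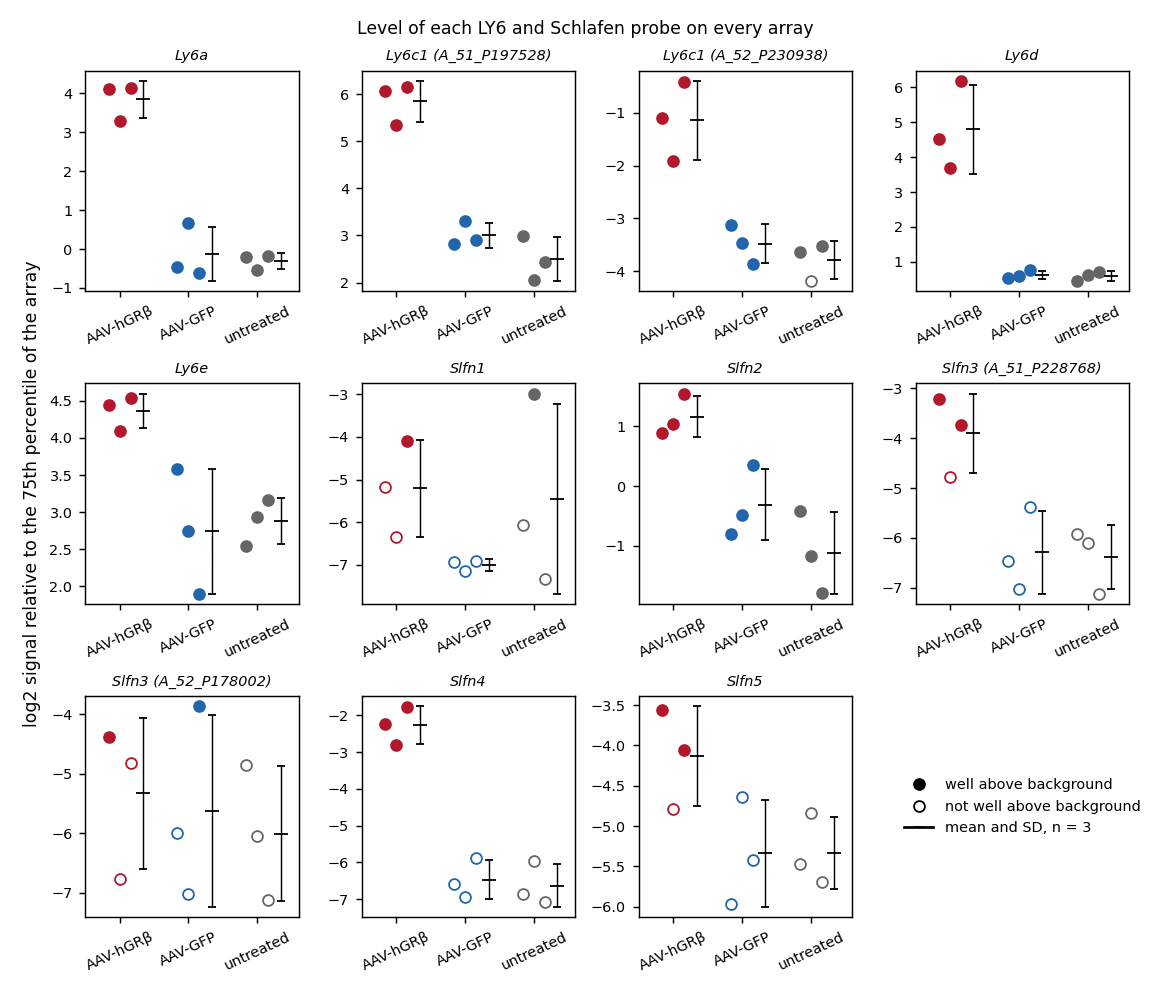
Level of each of the 11 member probes on every array, as log2 signal relative to the array's 75th percentile, in the AAV-hGRβ, AAV-GFP and untreated groups (3 arrays each, with mean and SD). The AAV-hGRβ points of Ly6a, Ly6c1, Ly6d and Slfn4 lie far above the other groups, while Slfn1, Slfn5 and the second Slfn3 probe overlap at least 1 of them.

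Among the LY6 genes, Ly6a, Ly6c1 and Ly6d stood 2.84 to 4.17 log2 units higher with AAV-hGRβ than with AAV-GFP, and Ly6e 1.62 higher. Ly6a encodes Sca-1, a surface marker of haematopoietic stem cells and of activated lymphocytes. Its level was 4.12, 3.30 and 4.13 on the AAV-hGRβ arrays, against -0.46, 0.66 and -0.61 on the AAV-GFP arrays and -0.20, -0.54 and -0.17 on the untreated arrays. All 3 AAV-hGRβ arrays lay above the other 6, by at least 2.64, and the AAV-GFP and untreated arrays overlapped. The mean was 3.85 ± 0.48 with AAV-hGRβ, -0.14 ± 0.69 with AAV-GFP and -0.30 ± 0.21 in untreated liver (SD, n = 3 each). The log2 difference was 3.98 over AAV-GFP and 4.15 over untreated (SE of the limma fit 0.36), or 15.8-fold and 17.8-fold. AAV-GFP minus untreated was 0.17.

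Ly6c1 encodes a surface marker of monocytes that is also found on endothelium and on some T cells. The files call both of its probes Ly6c, and its close copy Ly6c2 has no probe under that name, so the RNA of the copies cannot be told apart. On the brighter probe the level was 6.06, 5.34 and 6.14 on the AAV-hGRβ arrays, against 2.81, 3.30 and 2.90 on the AAV-GFP arrays and 3.00, 2.06 and 2.44 on the untreated arrays. The AAV-hGRβ arrays were highest, the lowest of them 2.04 above the highest AAV-GFP array, and the AAV-GFP and untreated arrays overlapped. The log2 difference was 2.84 over AAV-GFP and 3.35 over untreated (SE 0.30), and 0.50 between AAV-GFP and untreated. The dimmer probe gave 2.34 and 2.65 (SE 0.38), the same direction with a smaller size, and 0.31 between AAV-GFP and untreated.

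Ly6d marks early progenitors of B lymphocytes and is also a keratinocyte antigen. It had 4.53, 3.68 and 6.19 on the AAV-hGRβ arrays, against 0.54, 0.59 and 0.75 on the AAV-GFP arrays and 0.44, 0.63 and 0.70 on the untreated arrays. The 6 arrays without hGRβ lay within a narrow band, while the AAV-hGRβ arrays were spread more widely (SD 1.28, against 0.11 with AAV-GFP and 0.14 in untreated liver). The log2 difference was 4.17 over AAV-GFP and 4.21 over untreated (SE 0.52), or 18.1-fold and 18.5-fold. Between AAV-GFP and untreated it was 0.03. Leaving out AAV-hGRβ replicate 3, the highest array, left 3.48 over AAV-GFP.

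Ly6e encodes a membrane protein known to restrict the entry of some viruses and to help that of others. Its level was 4.45, 4.10 and 4.54 on the AAV-hGRβ arrays, against 3.58, 2.75 and 1.90 on the AAV-GFP arrays and 2.54, 2.93 and 3.16 on the untreated arrays. All AAV-hGRβ arrays were above all others, by at least 0.52, and the AAV-GFP arrays were spread widely (SD 0.84, against 0.23 with AAV-hGRβ and 0.31 in untreated liver). The log2 difference was 1.62 over AAV-GFP and 1.48 over untreated (SE 0.38), and -0.14 between AAV-GFP and untreated. It was the smallest of the 4 LY6 members in both comparisons with AAV-hGRβ.

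Of the Schlafen genes, Slfn4 had the largest difference and Slfn2 was well above background on every array, while Slfn1, Slfn3 and Slfn5 were near background on most arrays. Slfn4 is a gene of myeloid cells, described in macrophages and in suppressor cells of the inflamed stomach. Its level was -2.23, -2.80 and -1.78 on the AAV-hGRβ arrays, against -6.59, -6.94 and -5.89 on the AAV-GFP arrays and -6.85, -5.97 and -7.07 on the untreated arrays. It was well above background on 3 of 3 AAV-hGRβ arrays and on 0 of the other 6, so the low side is only a bound. The floor on each dim array was either the probe's own signal or, if higher, the dimmest signal that any probe well above background had there. Against it, Slfn4 was at least 6.01-fold higher in AAV-hGRβ liver than with AAV-GFP and at least 5.51-fold higher than in untreated liver. These bounds used the scanner's processed signal. With a background correction made anew from mean and local background signals (limma's normexp), the log2 difference over AAV-GFP was -0.20, and 1.08 when bright local backgrounds were replaced by the array median.

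Slfn2 is needed for T cells to stay quiescent and is also found in monocytes. Its level was 0.89, 1.04 and 1.55 on the AAV-hGRβ arrays, against -0.81, -0.48 and 0.35 on the AAV-GFP arrays and -0.41, -1.17 and -1.78 on the untreated arrays. The AAV-hGRβ arrays were highest, with a gap of 0.54 to AAV-GFP replicate 3, and the AAV-GFP arrays overlapped the untreated ones. Its log2 difference was 1.48 over AAV-GFP and 2.28 over untreated (SE 0.40). Slfn2 also had the largest AAV-GFP minus untreated difference of the 6 members that passed the filter, at 0.81.

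Slfn3 encodes an intermediate form close to Slfn4. On its first probe the level was -3.21, -4.78 and -3.73 on the AAV-hGRβ arrays, against -6.46, -7.03 and -5.38 on the AAV-GFP arrays and -5.93, -6.10 and -7.12 on the untreated arrays. AAV-hGRβ replicates 1 and 3 were well above background, and none of the other 7 arrays was. With AAV-hGRβ replicate 2 not above background either, no fold is given. Its other probe had -4.39, -6.78 and -4.82 with AAV-hGRβ, against -5.99, -7.03 and -3.86 with AAV-GFP and -4.85, -6.05 and -7.12 in untreated liver, and was well above background on 2 arrays, replicate 1 of AAV-hGRβ and replicate 3 of AAV-GFP. All groups overlapped on that probe, so the Slfn3 probes do not show the same pattern.

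Slfn5 had -3.56, -4.78 and -4.06 on the AAV-hGRβ arrays, against -5.96, -4.64 and -5.42 on the AAV-GFP arrays and -5.47, -4.83 and -5.70 on the untreated arrays. It was well above background on AAV-hGRβ replicates 1 and 3 and on 0 of the other 7 arrays. AAV-hGRβ replicate 2, not above background, lay within the AAV-GFP range, so no fold is given. Slfn1, a short form known to slow the growth of thymocytes, had -5.17, -6.35 and -4.09 with AAV-hGRβ, against -6.93, -7.15 and -6.91 with AAV-GFP and -6.05, -2.98 and -7.32 in untreated liver. Only AAV-hGRβ replicate 3 and untreated replicate 3 were well above background, and the highest level of Slfn1 was on the untreated array, so no fold is given. Under normexp, the AAV-hGRβ minus AAV-GFP differences of these dim probes were all below 0 (Slfn1 -0.86, Slfn3 -0.80 and -1.12, Slfn5 -0.90).

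The AAV-hGRβ arrays lay above all AAV-GFP arrays for 6 of the 6 members that passed the filter, Slfn4 among them, which could pass only by being high there. In this comparison, 9.59% of all genes tested were higher on every AAV-hGRβ array than on every AAV-GFP array. Against untreated liver the count was also 6 of 6, beside 14.8% of all genes, and for AAV-GFP against untreated it was 0 of 6, beside 5.76%. Nothing is read from these counts, since the members were chosen on these values, and the comparisons share their arrays.

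**Figure D2:**
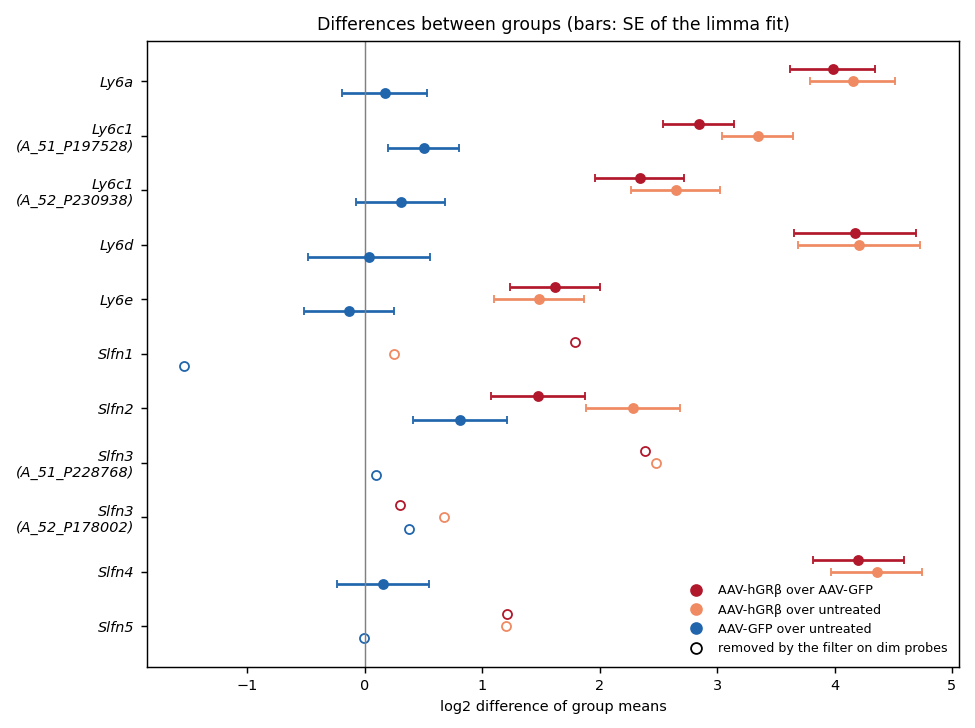
Log2 difference of group means for each member probe in the 3 comparisons, with the SE of the limma fit where the probe passed the filter on dim probes (open points did not pass). The differences of AAV-hGRβ over AAV-GFP and over untreated lie close together for Ly6a, Ly6d and Slfn4, and those of AAV-GFP over untreated lie between -0.14 and 0.81 for the members that passed.

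The arrays were scanned on 2 days, each holding all 3 groups. On day 1 (2 arrays per group) the log2 difference of AAV-hGRβ over AAV-GFP was 3.61 for Ly6a, 2.69 for Ly6c1, 4.37 for Ly6d and 1.15 for Ly6e. On day 2 (1 array per group) it was 4.73 for Ly6a, 3.16 for Ly6c1, 3.78 for Ly6d and 2.55 for Ly6e. Slfn2 had 1.94 on day 1 and 0.54 on day 2, and the measured signal of Slfn4 had 4.47 and 3.66. Every member that passed the filter was thus higher with AAV-hGRβ on both days, with the size of Ly6e and Slfn2 differing most. Slides held a single group, apart from the slide of AAV-GFP replicate 3 and AAV-hGRβ replicate 1, which are the same 2 arrays as this day 2 comparison.

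**Figure D3:**
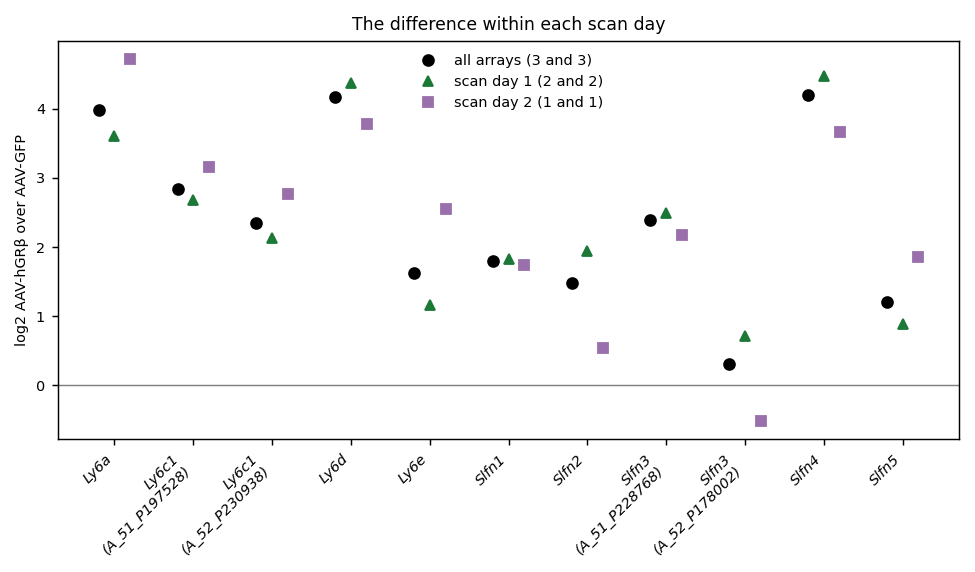
Log2 difference of AAV-hGRβ over AAV-GFP for each member probe over all arrays, on scan day 1 (2 arrays per group) and on scan day 2 (1 array per group). All points are above 0 except the second Slfn3 probe on day 2.

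Both families lie in clusters, and the position of each probe is given here as the files have it, on build mm7. The LY6 probes lie on chromosome 15, Ly6d at chr15:74842671-74842730, Ly6e at chr15:75039587-75039646, Ly6a at chr15:75075673-75075732 and the brighter Ly6c1 probe at chr15:75125619-75125674. Those of the Schlafen genes lie on chromosome 11, Slfn5 at chr11:83043722-83043781, Slfn2 at chr11:83151864-83151923, Slfn1 at chr11:83203729-83203788, Slfn4 at chr11:83259377-83259436 and the first Slfn3 probe at chr11:83284834-83284893. All probes are 60 bases long, though the position given for the brighter Ly6c1 probe spans fewer bases than that. No annotation of build mm7 was used, so exon and UTR positions are not given. The longest run of bases shared by probes of different genes of the families was 10 bases. Cross-hybridisation between full transcripts was not tested.

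Neighbours within a cluster differed. From Ly6m to Ly6c1 on chromosome 15, the log2 differences of AAV-hGRβ over AAV-GFP were 1.13 for Ly6m, 1.62 for Ly6e, 1.07 for Ly6i, 3.98 for Ly6a and 2.84 for Ly6c1. Further out, Ly6h had 0.41, Gpihbp1, which carries lipoprotein lipase across capillary endothelium, had -0.28, and Lynx1, a brake on nicotinic receptors, had -0.21. Ly6d, with 4.17, lay between Lynx1 and Ly6k, which had 1.05. Ly6m, Ly6k, Ly6f, Ly6h, Gpihbp1 and Lynx1 did not pass the test, and Ly6f, Ly6h and Lynx1 were named after their values were seen, to describe the neighbours. With 0 AAV-GFP arrays well above background, only a lower bound of 1.88-fold over AAV-GFP can be given for Ly6f (adjusted p = 0.228, limma). Its level was -4.44, -4.05 and -3.34 with AAV-hGRβ, against -4.86, -3.54 and -5.96 in untreated liver, so these groups overlapped. Of the untreated arrays, only replicate 3 (-3.54) was well above background for Ly6f. Ly6m was well above background on only 1 AAV-GFP array, so its 1.13 is partly set by values near the floor.

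**Figure D4:**
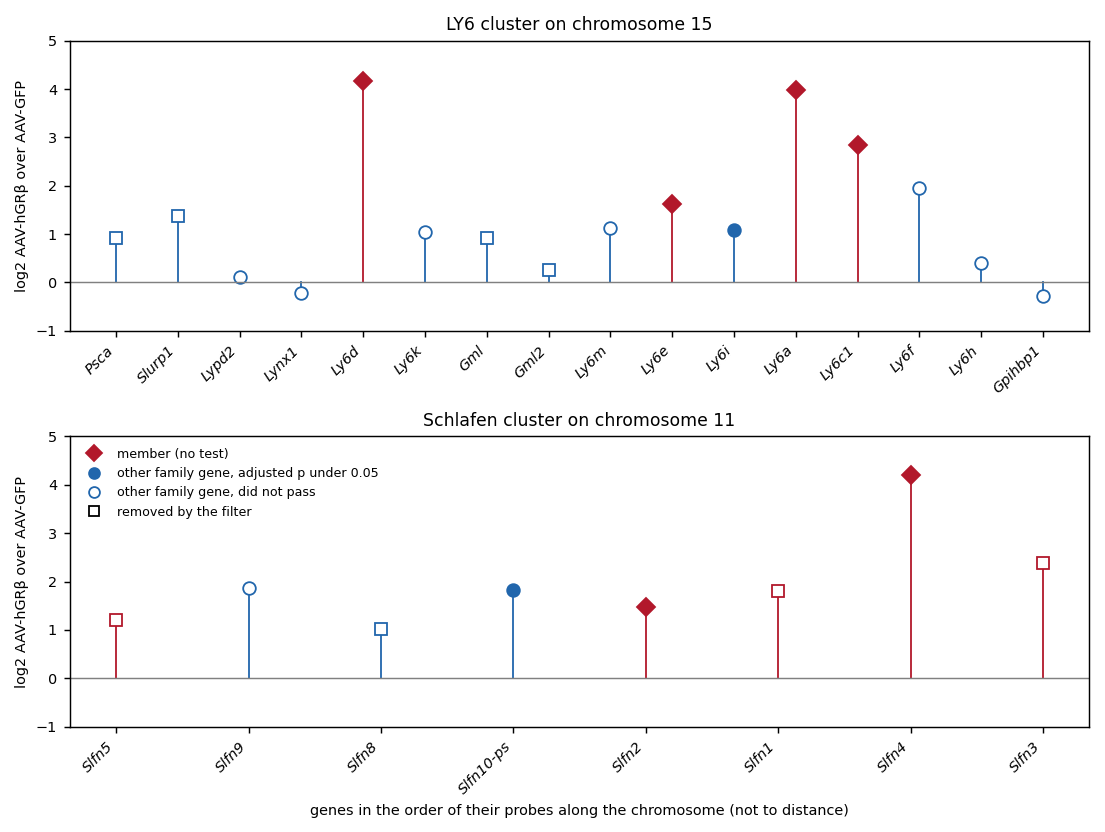
Log2 difference of AAV-hGRβ over AAV-GFP for the LY6 and Schlafen genes in the order of their probes along chromosomes 15 and 11, with spacing not to distance. Members are red diamonds, shown without a test, and other family genes blue circles, filled where limma gave an adjusted p under 0.05 and open where it did not. Squares were removed by the filter on dim probes, and measured values are drawn also where a group was not above background.

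Outside the 9 members, 44 genes of the families were listed, of which 38 were on the array by name and 22 were tested. Slfn10-ps and Ly6i rose with AAV-hGRβ over AAV-GFP and 0 fell, by limma with Benjamini-Hochberg adjustment over all genes at 0.05. Of all genes tested, 0.84% were called higher in this comparison and 0.917% in either direction, and over untreated 2.59% were called higher and 3.38% in either direction. Between AAV-GFP and untreated 0% were called, and 9.88% had an unadjusted p under 0.05. Slfn10-ps, a pseudogene of the long Schlafen group, had -0.93, -1.51 and -1.04 on the AAV-hGRβ arrays, against -3.19, -3.36 and -2.42 on the AAV-GFP arrays and -2.86, -3.08 and -3.20 on the untreated arrays. It rose by 1.82 over AAV-GFP (adjusted p = 0.0220) and by 1.88 over untreated (adjusted p = 0.0117). Ly6i, a close relative of Ly6a and Ly6c1, had -0.97, -0.62 and -0.61 on the AAV-hGRβ arrays, against -1.65, -1.91 and -1.86 on the AAV-GFP arrays and -1.96, -1.80 and -1.82 on the untreated arrays. It rose by 1.07 over AAV-GFP (adjusted p = 0.0259) and by 1.13 over untreated (adjusted p = 0.0130). In both genes every AAV-hGRβ array was above all 6 others. With slide as a random block, Slfn10-ps passed over AAV-GFP (adjusted p = 0.0388) and Ly6i did not (adjusted p = 0.0594), and neither passed over untreated (adjusted p = 0.0616 for Slfn10-ps and 0.0778 for Ly6i).

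Slfn9 passed the filter only through the AAV-hGRβ group, so that it had to be high there to be tested at all. It was at least 2.23-fold higher in AAV-hGRβ than in untreated liver (adjusted p = 0.0436, and 0.205 with slide as a random block), and it did not pass over AAV-GFP (adjusted p = 0.132). Plaur, the receptor of urokinase, did not pass in either comparison, with 1.03 over AAV-GFP (adjusted p = 0.172) and 1.03 over untreated (adjusted p = 0.0748). Neither did Ly6k over AAV-GFP (adjusted p = 0.218), nor Ly6m and Lypd6 over untreated, with 1.14 (adjusted p = 0.0955) and 1.80 (adjusted p = 0.106). Ly6m and Lypd6 were each well above background on only 1 untreated array. Their differences over untreated, here and below, are thus partly set by values near the floor. Of the 22 genes, 16 were above 0 over AAV-GFP, beside 8951 of all 16792 genes tested. The median was 0.42 beside 0.03 for all genes tested. Like Slfn9, Ly6f, Ly6m and Tex101 passed the filter only through the AAV-hGRβ group. That favours a high count and median in both comparisons with AAV-hGRβ, so nothing is read from them. Over untreated the median was 0.60 beside 0.10, and between AAV-GFP and untreated it was 0.11 beside 0.04, with 0 genes past the threshold. The smallest p values there were those of Gpihbp1 (0.63), Ly6k (-0.73) and Lypd6 (1.28), each with an adjusted p of 0.485 (limma). The number past the threshold over AAV-GFP was 0 without AAV-GFP replicate 1, AAV-GFP replicate 2 or AAV-hGRβ replicate 3, and 1 without untreated replicate 3, untreated replicate 4, AAV-hGRβ replicate 1 or AAV-hGRβ replicate 2. Over untreated it was 0 without untreated replicate 3, untreated replicate 4 or AAV-hGRβ replicate 3. Under normexp none passed, and over AAV-GFP Slfn10-ps had 0.15, Ly6i 0.22 and Slfn9 -0.74. Over untreated, Slfn9 turned to -0.49 under normexp.

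Since interferon is known to raise both families, 17 genes of interferon signalling were read out of the same fit. Irf7, a transcription factor that amplifies type I interferon, and Usp18, which dampens the interferon receptor, rose over AAV-GFP, and 0 of the 17 fell. Irf7 averaged 3.46 ± 0.29 on AAV-hGRβ arrays and 0.81 ± 0.37 on AAV-GFP arrays (SD, n = 3), a log2 difference of 2.65 (SE 0.23, limma adjusted p = 0.00347). Usp18 had 3.59 ± 0.15 with AAV-hGRβ and 1.43 ± 0.36 with AAV-GFP, a difference of 2.16 (SE 0.24, limma adjusted p = 0.00680). Socs1 and Irf9 gave 1.05 and 0.47, with adjusted p of 0.0798 and 0.292. The median of the 17 was 0.39, beside 0.03 for all genes.

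Over untreated, 3 of the 17 rose, among them Irf7 (3.21, adjusted p = 0.000836) and Usp18 (2.35, adjusted p = 0.00270), by limma, with a median of 0.30 for the 17 beside 0.10 for all genes. Irf9, Stat2 and Socs1 gave 0.72, 0.76 and 0.79, with adjusted p of 0.0514, 0.0791 and 0.0835. Between AAV-GFP and untreated 0 of the 17 passed, and the smallest p values were those of Irf7 (0.56), Socs3 (-0.99) and Irf9 (0.25), with limma adjusted p of 0.485, 0.512 and 0.514.

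For each member that passed the filter, the 2 genes outside the members with the most similar levels over the 9 arrays were picked by Pearson's r. Because the AAV-hGRβ arrays stand apart from the other 6, r describes that contrast as much as anything within a group, and no p is given. The genes nearest to Ly6a were Srxn1 (r = 0.991, n = 9) and Cplane1 (0.988), those nearest to Ly6c1 were Sapcd2 (0.993) and Oas1c (0.992), and those nearest to Ly6d were Ifit3 (0.989) and Egr2 (0.989). Ly6e was most like Ifitm3 (0.974) and Ifitm7 (0.971), Slfn2 most like Ifi27l2a (0.992) and Clec10a (0.991), and Slfn4 most like Oas1b (0.989) and Spats2l (0.987). Slfn4 and Oas1b were well above background on 0 AAV-GFP and 0 untreated arrays, and passed the filter only through the AAV-hGRβ group. Outside that group, their r rests on values near the floor. Egr2 also passed only through that group, being well above background on 1 AAV-GFP and 2 untreated arrays. Its r with Ly6d thus rests partly on such values. Ifit3, the Oas1 genes, Ifitm3 and Ifi27l2a are known interferon-induced genes, and Clec10a is a lectin of macrophages and dendritic cells. Among the members themselves, r ran from 0.538 between Ly6e and Slfn2 to 0.984 between Ly6a and Ly6c1.

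Several members are leukocyte genes, and in bulk liver a change in the number of cells of a type and a change in RNA per cell cannot be told apart. Of 20 markers of T and NK cells, 11 were well above background on every array, so the filter may favour a high median. With AAV-hGRβ over AAV-GFP, 4 of the 20 rose and 0 fell, with a median of 1.36. Among them, the granzyme genes Gzma (3.73, adjusted p = 0.0105) and Gzmb (2.34, adjusted p = 0.0312) rose. The T cell coreceptor Cd8a was another of the 4. Its probe in the fit passed the filter only through the AAV-hGRβ group, being dim on all AAV-GFP and untreated arrays. That probe had at least 12.6-fold more signal with AAV-hGRβ than with AAV-GFP (adjusted p = 0.00848, all limma), a p that its selection by the filter favours. A bound was given only where no probe of the gene was well above background on any array of the dimmer group. Cd8a did not meet this in untreated liver, so no bound over untreated liver is given for it. The summed linear level of that list, in which bright markers weigh most, overlapped, at 18.1 to 25.5 with AAV-hGRβ, 20.9 to 24.5 with AAV-GFP and 22.5 to 33.8 in untreated liver. Kupffer cell and macrophage markers gave 1 of 12 higher, Mpeg1 (1.55, adjusted p = 0.00667), with a median of 0.58 and sums of 254 to 364 with AAV-hGRβ, 107 to 187 with AAV-GFP and 105 to 132 in untreated liver.

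Neutrophil and monocyte markers gave 1 of 9 higher, the macrophage lectin Chil3 (1.93, adjusted p = 0.0443), with a median of 1.19 and sums of 10.2 to 20.0 with AAV-hGRβ, 4.07 to 10.4 with AAV-GFP and 3.91 to 8.39 in untreated liver. Elane, Cxcr2 and Fcnb, 3 defining genes of that list, did not pass the filter. Of the 9 tested, 6 were well above background on all 9 arrays, so the filter may favour a high median here too. Plasmacytoid dendritic cell markers gave 1 of 8 higher, Bst2 (1.24, adjusted p = 0.0376), a gene that interferon is also known to raise and that held 96.8% of the sum, which was 250 to 306 with AAV-hGRβ, 105 to 137 with AAV-GFP and 81.5 to 120 in untreated liver. B and plasma cell markers gave 0 of 8 past the threshold, with a median of 0.63 and sums of 10.4 to 14.3 with AAV-hGRβ, 13.2 to 16.7 with AAV-GFP and 14.3 to 14.6 in untreated liver. Endothelial markers gave 0 of 12, with a median of -0.24 and sums of 32.9 to 37.1 with AAV-hGRβ, 34.3 to 52.4 with AAV-GFP and 32.9 to 42.9 in untreated liver. Hepatocyte markers gave 0 of 9, with a median of -0.30 and sums of 2491 to 3089 with AAV-hGRβ, 3122 to 3963 with AAV-GFP and 2604 to 3674 in untreated liver. No listed marker on the array was below background on all 9 arrays, and the part of these cell types in the levels of Ly6a, Ly6c1, Ly6d, Slfn2 and Slfn4 was not tested. Under normexp, Cd8a, Gzma, Gzmb and Chil3 gave 0.37, 1.52, 0.80 and 0.51 over AAV-GFP and, like Bst2 and Mpeg1, did not pass. A random slide block ended the calls of Gzmb, Bst2 and Chil3 (limma adjusted p = 0.138, 0.0985 and 0.184). Leaving out single arrays, the Chil3 call was lost without each of the 9 (limma adjusted p from 0.0527 to 0.165), Bst2 without each but untreated replicate 2 (up to 0.178), Gzmb without each but untreated replicate 2 and AAV-hGRβ replicate 2 (up to 0.132), and Gzma without AAV-GFP replicate 1 (0.0644) or AAV-hGRβ replicate 1 (0.0620).

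**Figure D5:**
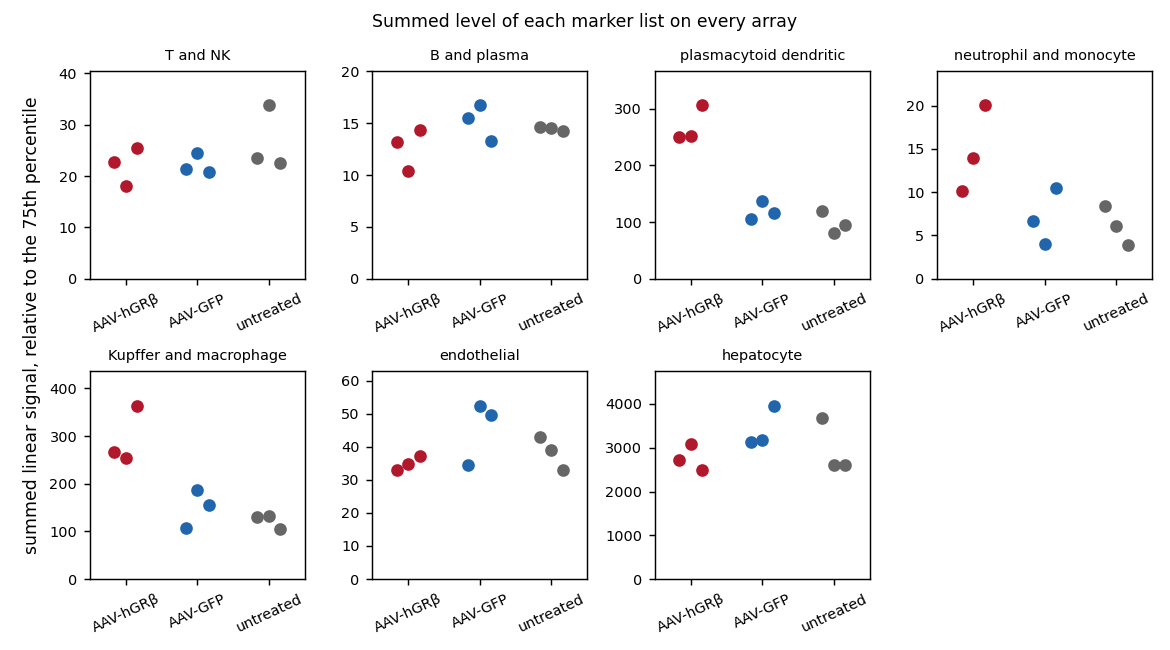
Summed linear signal of each cell type marker list on every array, relative to the array's 75th percentile, for the AAV-hGRβ, AAV-GFP and untreated groups. The AAV-hGRβ sums of the plasmacytoid dendritic and the Kupffer and macrophage lists are above all others, and those of the T and NK, B and plasma, endothelial and hepatocyte lists are not.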

How the data were processed

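The members, gene lists and tests were chosen with earlier results of these data known. Each deposited array file held Cy3 intensity per spot on a linear scale, with background and spatial trend removed by the scanner software and no scaling between arrays, per the file headers. Spots had been read with Agilent Feature Extraction 9.5 (submitters' processing notes). The deposited series table held the same intensity values. The files' remaining deposited columns used were the mean and background intensity and the quality flags. Starting from 500 ng of total RNA, Cy3-labelled cRNA was made, per the labels' protocols.

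From these values, control spots and outlier spots were left out, spots of a probe were averaged, and log2 signal minus the array's 75th percentile was taken. The filter kept probes well above background throughout 1 or more groups (24273 probes), and of several kept probes of a gene the brightest on average was used (5475 genes). A missing value on an array was left out of the fit (92 genes). Groups were compared in 1 fit of all 9 arrays by limma (version 3.58.1, R version 4.3.3; two-sided eBayes after lmFit, 6 residual degrees of freedom, no block), with Benjamini-Hochberg adjustment over 16792 genes at 0.05. The code was tested on simulated data. Names came from a RefSeq table of assembly GRCm38.p6. Signal over background and the 3 arrays per group limit the precision.

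Besides the members, the rule for named genes took, per comparison, up to 6 genes of the other family genes and of interferon signalling past the threshold and up to 3 not past it, by smallest p, up to 3 markers past it per cell type list, and for each member the 2 genes most alike. Some genes that the rule took are not reported here.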

Additional observations from a re-analysis of the deposited data

How the results depend on the processing

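Differences of the 6 members that passed the filter kept their direction under all alternatives run for AAV-hGRβ over AAV-GFP and over untreated, except Slfn4 over AAV-GFP, which was -0.20 with normexp. The members were chosen on this direction, so it is no sign of stability. Normexp also turned Slfn9 (-0.74 over AAV-GFP, -0.49 over untreated), Plaur (-0.46 and -0.26), Ly6k (-0.17 over AAV-GFP), Ly6m (-0.52) and Lypd6 (-0.45, both over untreated), and Ly6k for AAV-GFP over untreated was 0.0625 on scan day 2. The cause was not tested.

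Genes past the threshold over AAV-GFP, 154 in all, numbered 14 with normexp, 95 with arrays scaled to their medians (77 higher and 18 lower, against 141 and 13), 30 with no filter, 260 with scan day as a block, 3 on day 1 alone, 75 with slide as a random block, 0 as a fixed block and 77 with only the 2 groups fitted. Other family genes, 2 in all, numbered 0 with normexp, no filter, day 1 alone, slide as a fixed block and the 2 groups alone, and 1 with median scaling and slide as a random block. Interferon signalling genes, 2 in all, numbered 1 with normexp and 0 on day 1 alone and with slide as a fixed block. Over untreated the 568 genes became 45 with normexp, 85 with no filter, 1256 with the scan-day block, 4798 on day 1 alone, 58 with slide as a random block and 324 with the 2 groups alone. They split into 435 higher and 133 lower, and into 329 and 258 with median scaling and 510 and 338 with normexp on replaced backgrounds. Other family genes, 3 in all, became 0 with normexp, no filter and random slide and 5 on day 1 alone, and interferon genes, 3 in all, became 1 with normexp, 5 with the scan-day block and 8 on day 1 alone. For AAV-GFP over untreated, 0 became 1 with quantile normalization, the scan-day block or day 1 alone and 4 with median scaling. Median scaling moved the median of all genes by -0.34 in both comparisons with AAV-hGRβ, and over untreated normexp moved it by -0.23 and quantile normalization by -0.13.

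Leaving out single arrays gave 41 to 162 genes over AAV-GFP (96 without untreated replicate 4, 41 without AAV-GFP replicate 1, 46 without AAV-hGRβ replicate 1 and 49 without AAV-hGRβ replicate 3) and 94 to 2150 over untreated (lowest without AAV-hGRβ replicate 3, highest without untreated replicate 2). The other family genes numbered 0 to 2 and 0 to 4, the interferon genes 2 to 3 and 2 to 5, and AAV-GFP over untreated 0 to 1. The replicate numbers were not taken to pair the samples. Deviations of same-numbered AAV-hGRβ and AAV-GFP arrays correlated at 0.01, 0.24 and 0.01. These values show no pairing but, with 3 arrays per group, cannot exclude it. With a replicate block, 2 genes passed over AAV-GFP and 1 over untreated and 0 other family and 0 interferon genes. Slide as a fixed block could not be fitted for comparisons with untreated liver, and day 2 alone has no test. Signal over background limits Slfn1, Slfn3, Slfn4 and Slfn5, which lie near the floor.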
